A study of Mus musculus with 15 samples.

Results

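Cells of the strongly adherent fraction of MDA-MB-231 tumours were compared with unsorted cells of the same group number. The members are the 8 libraries of the 4 title numbers that hold both kinds, 4, 5, 6 and 9, out of 15 libraries in all. Each pair is 1 strongly adherent and 1 unsorted library that share a number, and each difference was taken as strongly adherent minus unsorted within that number. All 8 libraries are bulk mRNA of primary tumours, removed from mice of the strain given as Nod/Skid, dissociated into single cells, and made from MDA-MB-231 cells that carry GFP and luciferase reporters. MDA-MB-231 is an established human breast cancer line that lacks hormone receptors and is usually described as mesenchymal. The strongly adherent cells had been sheared at 50 dyn/cm2, and the unsorted cells had not been sheared. The labels used here do not say whether shear was applied before implantation or after dissociation, what the number stands for, or whether libraries came from separate animals. P-values therefore measure only the spread between these libraries, which may be technical.

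Adhesion to matrix is carried by integrins, which bind extracellular ligands outside the cell and actin through focal adhesion proteins inside it. Epithelial cells also hold to each other by E-cadherin junctions, desmosomes and tight junctions, and transcription and splicing factors such as ELF3, GRHL2 and ESRP1 maintain that state. Mesenchymal cells have little E-cadherin and much vimentin. Secreted proteases such as the matrix metalloproteinases cut the matrix to which cells attach.

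Total counts ran from 30372619 to 44047376 per library, and 16760 to 17974 genes had a count. After removal of low genes 14806 were tested, and they held 99.96% of the counts. Levels are given as CPM, counts scaled to a common library size with TMM factors, and pair differences are differences of log2 CPM with a prior count of 2. The counts are reads on human gene symbols, and the labels give the organism as mouse, so host reads from genes alike in both species may be counted too. In bulk libraries, fewer cells of a type and less RNA per cell cannot be told apart.

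The label of the cells was set against marker genes. ESR1 and PGR, the hormone receptors, were at most 0.235 and 0.962 CPM. CDKN2A and CDKN2B, neighbouring cell cycle inhibitor genes, had 0 counts in all 8 libraries. VIM, the mesenchymal filament vimentin, was between 1167 and 6696 CPM. CDH1, which encodes E-cadherin, was between 54.3 and 561 CPM in the 6 libraries of numbers 4, 5 and 9, against 0.273 CPM in the strongly adherent and 0.416 CPM in the unsorted library of number 6. The surfactant gene SFTPB, a lung epithelial marker, was at 8.54 to 172 CPM in numbers 4, 5 and 9 and at most 0.300 CPM in number 6. The libraries of numbers 4, 5 and 9 thus hold epithelial and lung-lineage transcripts beside vimentin, which the usual description of the line does not include. The source of these transcripts was not tested.

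No gene passed edgeR's paired quasi-likelihood test at a Benjamini-Hochberg adjusted p of 0.05 (0 of 14806, 0%), and the smallest adjusted p was 0.0838. At an unadjusted p under 0.05 there were 1396 genes (9.43%), of which 922 were higher (6.23%) and 474 lower (3.2%) in the strongly adherent libraries. DESeq2 with the same block called 232 of 14231 genes (1.63%), 212 higher (1.49%) and 20 lower (0.141%). In counts simulated with edgeR's dispersion estimates it made more false calls than its threshold allows, 43 of 239. Limma voom with the block called 1 gene, SFTPB, and voom with library weights, an alternative chosen after seeing the data, called 164, of which 163 were higher. The number of calls thus depended on the tool, and in DESeq2 and both voom fits higher genes outnumbered lower ones.

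By consistency, 1513 genes were higher in all 4 pairs (10.2%) and 1453 were lower in all 4 (9.81%). A difference of at least 2-fold in every pair was less even: 33 genes were higher (0.223%) and 4 lower (0.027%). The 4 lower ones, named after their values were seen, were SSX1, CPA6, CCNYL2 and LINC00839. With 4 pairs the smallest two-sided exact sign-flip p is 0.125, so consistency for a single gene is a description. Of DESeq2's calls, 195 of the 212 higher and all 20 lower genes had 1 direction in all 4 pairs. When each pair was left out in turn, 63 of the 232 were called by DESeq2 every time, 60 higher and 3 lower (LSP1, SSX1 and ARHGAP30).

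**Figure D1:**
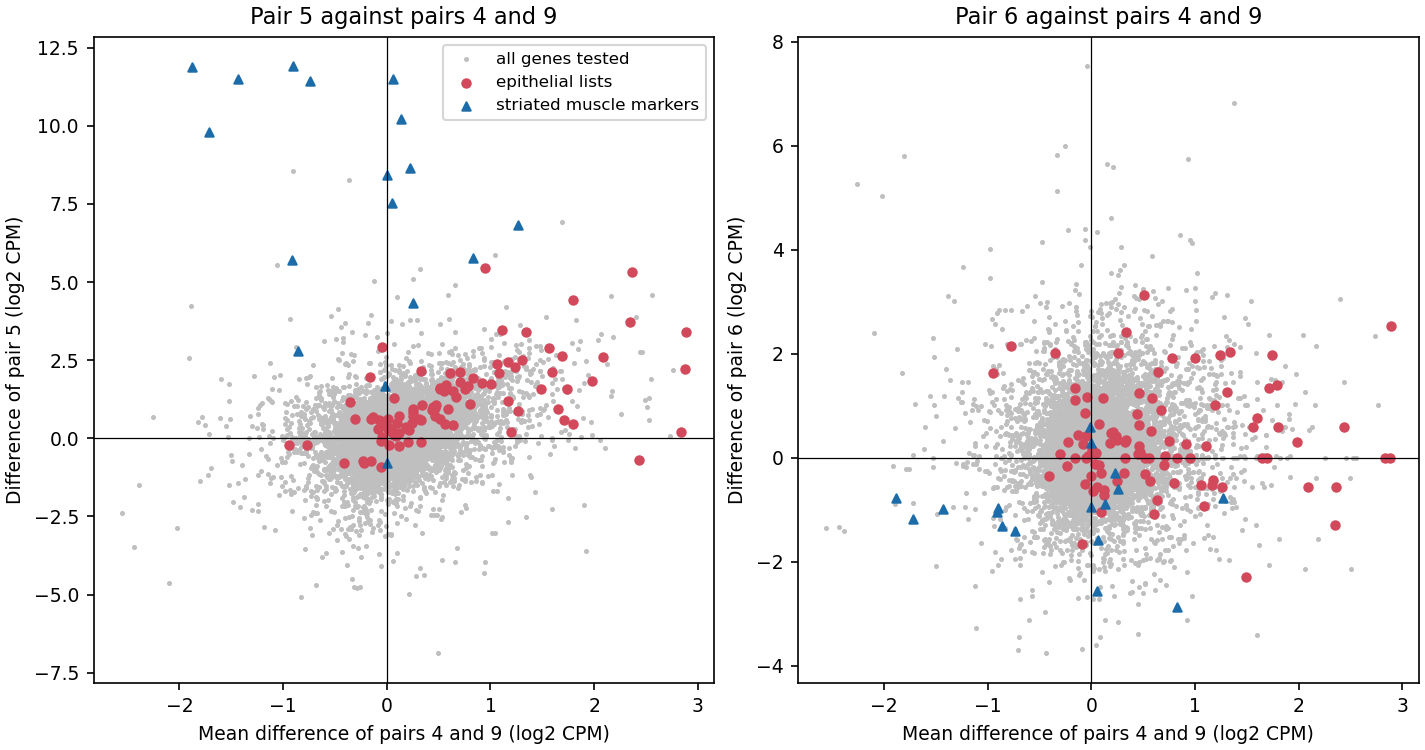
Difference in log2 CPM (strongly adherent minus unsorted) of pair 5 (left) and pair 6 (right) on the vertical axis against the mean difference of pairs 4 and 9 on the horizontal axis, 1 point per gene of the 14806 tested, with the vertical scales unlike. Of the 17 striated muscle markers (triangles) 16 lie above 0 in pair 5 and 15 below 0 in pair 6, while genes of the 7 epithelial and junction lists (large circles) lie mostly to the right of 0.

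The 4 pairs did not contribute alike. The median absolute difference over all genes was 0.37 in pair 5 and 0.30 in pair 6, against 0.19 in pair 4 and 0.17 in pair 9. Pair 5 gave the largest absolute difference for 43.7% of genes, pair 6 for 33.9%, pair 4 for 12.1% and pair 9 for 10.3%. At least 2-fold higher were 590 genes in pair 4 (3.98%), 1225 in pair 5 (8.27%), 1201 in pair 6 (8.11%) and 412 in pair 9 (2.78%). At least 2-fold lower were 213 (1.44%), 731 (4.94%), 517 (3.49%) and 252 (1.7%). Higher by any amount were 51.5% of all genes in pair 4, 51.1% in pair 5, 50.1% in pair 6 and 49.5% in pair 9.

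The 10 genes with the largest smallest pair difference among those higher in all 4 pairs were SLC6A14, MMP10, C3, SLPI, RTN4RL1, CAPN8, WNK2, NAPSA, ACTBL2 and TC2N. SLC6A14 encodes a membrane transporter for neutral and cationic amino acids. It was at 76.3, 38.3, 0.819 and 17.7 CPM in strongly adherent libraries 4, 5, 6 and 9 and at 15.7, 2.57, 0.0520 and 3.04 CPM in their unsorted partners. Each strongly adherent library was above its partner, while the groups overlapped because both libraries of number 6 were far below the rest. The fitted log2 fold change was 2.95 ± 0.30 (SE, 4 pairs), with an adjusted p of 0.0838 in edgeR and 2.294e-17 in DESeq2.

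MMP10, the matrix metalloproteinase stromelysin-2, was at 75.6, 28.7, 0.300 and 14.6 CPM in the strongly adherent libraries and 19.3, 10.0, 0.0260 and 2.78 CPM in the unsorted ones. Its log2 fold change was 2.00 ± 0.21 (edgeR adjusted p 0.0838). Pairs 4, 5 and 9 differed by 1.97, 1.51 and 2.37, and pair 6 had 11 counts against 1, too few for a size. NAPSA, the aspartic protease napsin A that processes surfactant, was at 24.2, 18.2, 1.17 and 4.80 CPM against 5.35, 6.04, 0.260 and 1.90 CPM. The log2 fold change of NAPSA was 1.78 ± 0.21 (edgeR adjusted p 0.0907).

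C3, the central complement protein, was at 94.4, 77.8, 0.382 and 27.3 CPM against 34.1, 5.22, 0 and 8.89 CPM. Among pairs 4, 5 and 9 the largest difference was in pair 5, 3.88, and its log2 fold change of 2.36 ± 0.51 was 1.65 without pair 5. DESeq2 called C3 with all 4 pairs and with no 3 of them, with adjusted p from 0.0504 to 0.547. SLPI, a secreted inhibitor of neutrophil elastase, was at 6.97, 5.09, 0.410 and 2.29 CPM against 2.52, 0.433, 0.0260 and 0.0633 CPM, a log2 fold change of 3.07 ± 0.57. The other 5 were at 13.1 CPM or less in every library, with log2 fold changes of 1.61 (TC2N) to 2.26 (ACTBL2). DESeq2 called all 10, but they were chosen by their differences in the same libraries, so these calls are no separate support. Without pair 5, DESeq2 no longer called C3, RTN4RL1, CAPN8, WNK2 or ACTBL2 (adjusted p 0.547, 0.248, 0.0577, 0.557 and 0.143). In 8 of the 10 the unsorted library of number 6 held 3 or fewer counts, so pair 6 gives their direction from few reads and no bound on their fold.

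**Figure D2:**
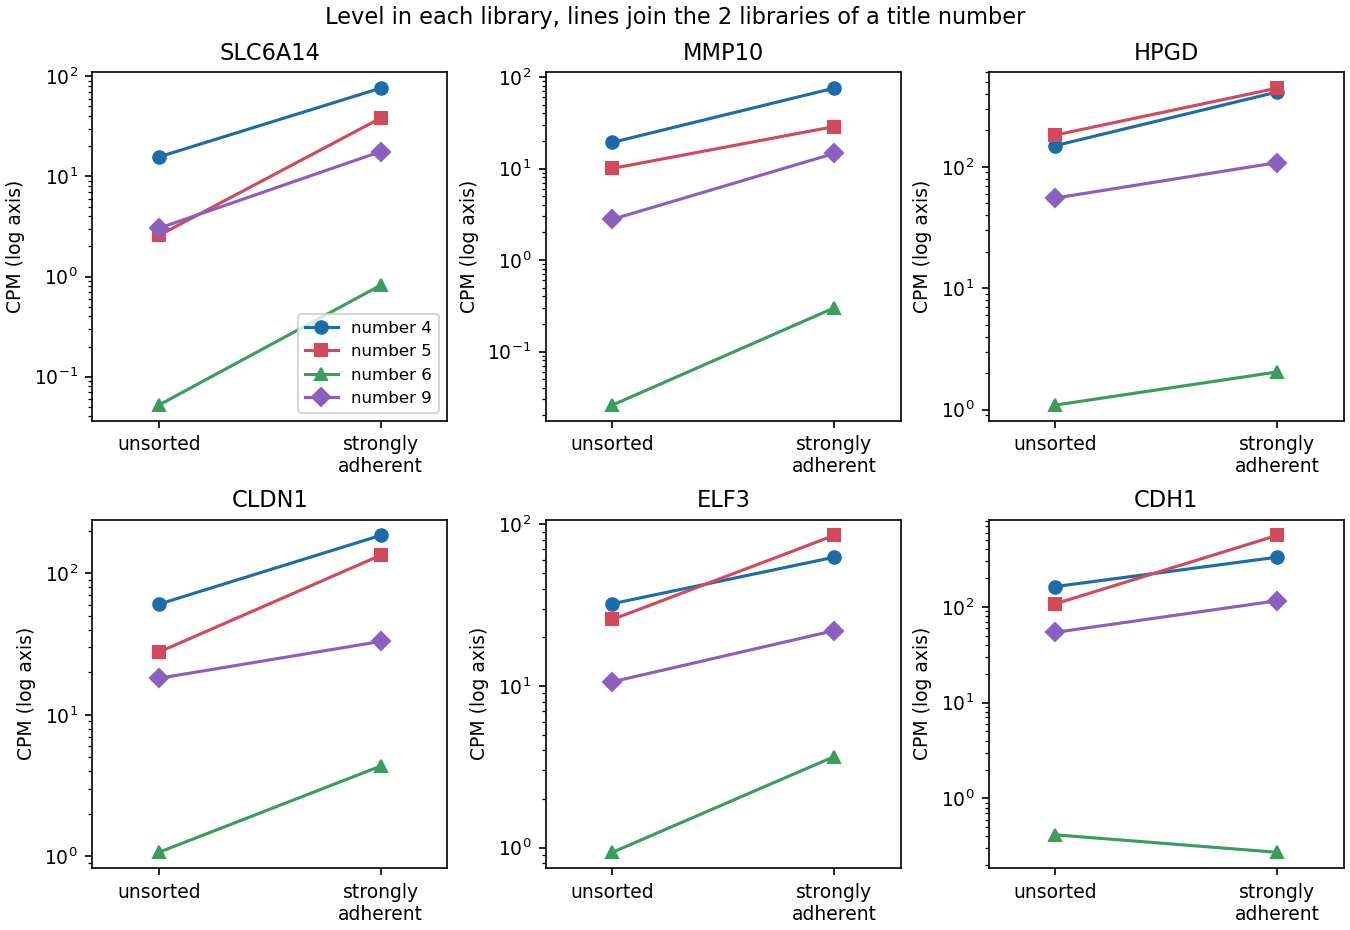
CPM (log axis) of 6 genes in the unsorted and strongly adherent library of each number, with a line joining the 2 libraries of a number. Strongly adherent libraries lie above their partners except for CDH1 in number 6 (0.273 against 0.416 CPM), and both libraries of number 6 lie lowest for all 6 genes.

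Unsorted library 7-8 has no strongly adherent partner and entered no pair. Scaled over all 15 libraries, it held SLC6A14 at 48.8 CPM, MMP10 at 77.1 CPM, SFTPB at 211 CPM, MMP1 at 442 CPM and HPGD at 366 CPM. On that scale strongly adherent libraries reached 75.4 CPM for SLC6A14, 74.7 CPM for MMP10, 170 CPM for SFTPB, 450 CPM for MMP1 and 437 CPM for HPGD. For these genes this unsorted library thus lay within or above the range of the strongly adherent ones. The 2 groups overlapped also without it, since unsorted library 4 was above strongly adherent library 6 for each of these genes. For these genes the differences were seen within numbers only. HPGD was higher in the weakly than in the strongly adherent libraries of numbers 6 and 9 (6.91 against 2.01 and 122 against 108 CPM). It was lower in those of numbers 4 and 5 (153 against 409 and 170 against 437 CPM). SLC6A14, MMP10, SFTPB and MMP1 were higher in the weakly adherent library in number 6 only (MMP1 74.1 against 35.4 CPM). CDH1, CLDN1 and ERBB3 followed HPGD, higher in the weakly adherent libraries of numbers 6 and 9 and lower in those of 4 and 5. In numbers 6 and 9 CDH1 was at 5.56 against 0.267 and 126 against 115 CPM. Their unsorted libraries held CDH1 at 0.407 and 53.1 CPM. In numbers 6 and 9 levels above unsorted were thus not particular to the strongly adherent libraries for these genes.

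Without the number as a term, edgeR called 0 genes, the smallest adjusted p was 0.988 and 459 genes had an unadjusted p under 0.05. In a fit on all 15 libraries with the number as a term edgeR also called 0 (smallest adjusted p 0.501).

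Genes of epithelial lists were higher more often than all genes were. The lists of lung lineage genes, epithelial regulators, keratins, mucins, epithelial proteases and tight junction genes were drawn up after values of these data had been seen, so their counts are descriptions. Together with the list of cell-cell junction genes they hold 124 genes, of which 99 were tested. Of these, 85 had a positive log2 fold change (51.5% of all genes had one), with a median of 0.69 against 0.01 for all genes. In all 4 pairs 35 were higher (35.4%, against 10.2% of all genes) and 2 were lower (2.02%, against 9.81%). DESeq2 called 22 higher and 0 lower, against 1.49% and 0.141% of all genes. edgeR called 0. At an unadjusted edgeR p under 0.05 there were 51 higher and 2 lower, against 6.23% and 3.2% of all genes. The median pair difference was 0.66 in pair 4, 0.90 in pair 5, 0.22 in pair 6 and 0.26 in pair 9.

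Pair 6 was thin for these genes: 22 of the 99 had 3 or fewer counts in both of its libraries, and 50 of the other 77 were higher. Of the 35 genes higher in 4 of 4, 6 had 3 or fewer counts in both libraries of pair 6. Over pairs 4, 5 and 9 alone, 63 of the 99 were higher in all 3 (63.6%, against 20.9% of all genes) and 5 were lower (5.05%, against 19.3%).

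**Figure D3:**
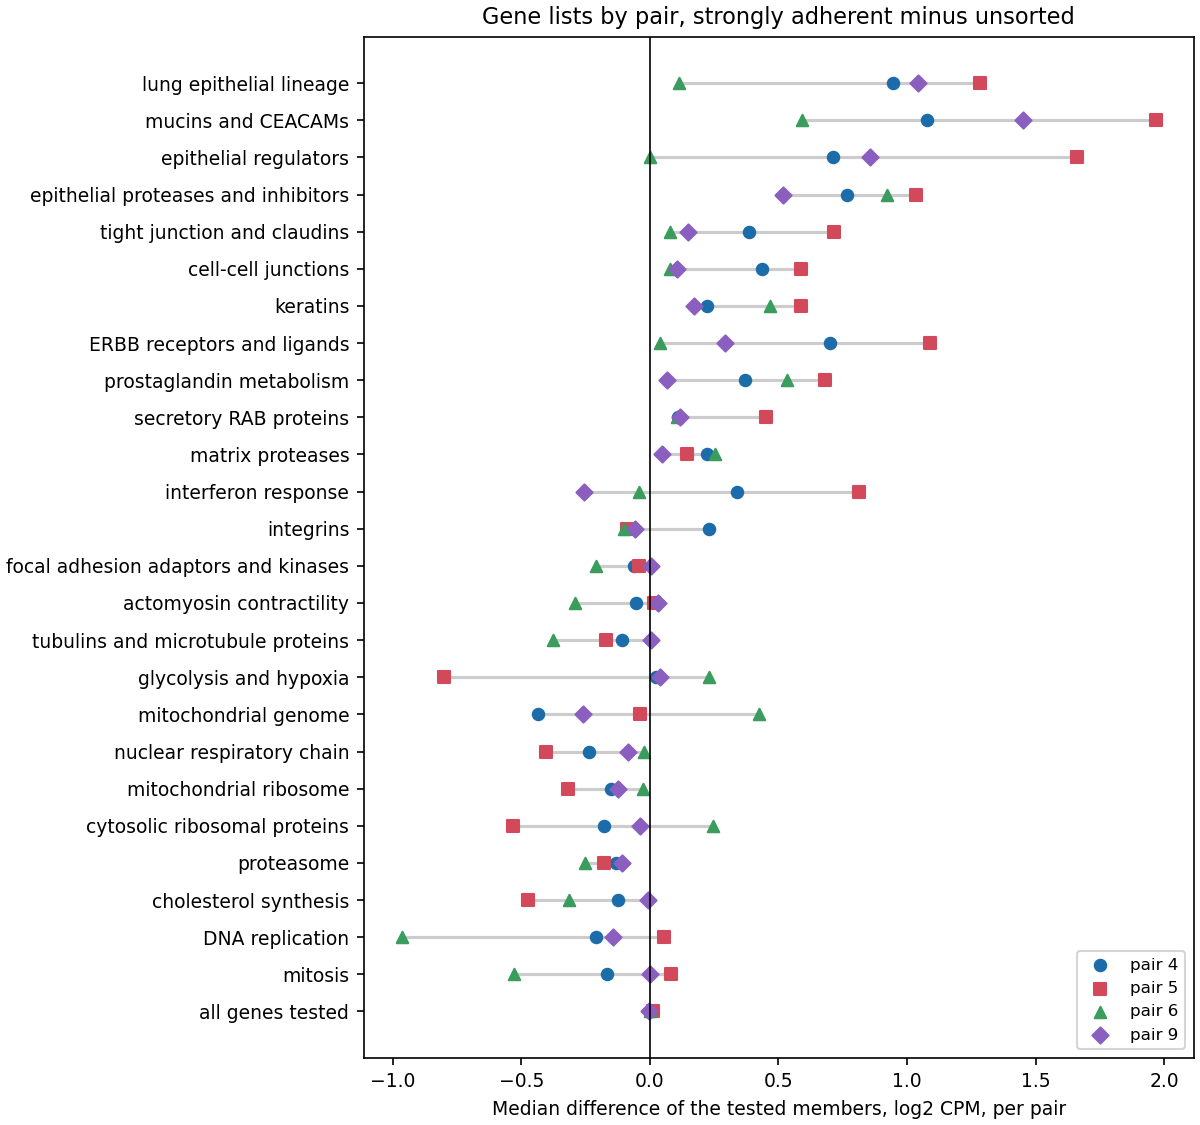
Median difference in log2 CPM (horizontal axis) of the tested members of each gene list, 1 point per pair, with all genes tested in the bottom line. The 7 lists of epithelial and junction genes at the top lie to the right of 0 in pairs 4, 5 and 9, while those of the nuclear respiratory chain and the proteasome lie to the left in all 4 pairs.

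Among lung lineage genes, 16 were tested, with a median log2 fold change of 1.22. In 4 of 4 pairs 6 were higher (37.5%, against 10.2% of all genes) and 1 was lower (6.25%, against 9.81%). DESeq2 called 6 higher and 0 lower, against 1.49% and 0.141% of all genes. SFTPB encodes surfactant protein B, which lowers surface tension in the alveolus. It was at 172, 67.6, 0.300 and 41.0 CPM against 52.8, 19.1, 0.234 and 8.54 CPM, with a log2 fold change of 1.82 ± 0.20 (edgeR adjusted p 0.0838). The 3 pairs in which it was abundant differed by 1.71, 1.82 and 2.25, and pair 6 by 0.30 at the level of a few reads. NKX2-1, the transcription factor that specifies lung and thyroid epithelium, was at 39.4, 46.2, 0 and 14.8 CPM against 15.8, 25.2, 0.0260 and 6.33 CPM. LPCAT1, which makes the main phospholipid of surfactant, was at 271, 420, 72.3 and 111 CPM against 158, 211, 46.7 and 101 CPM, and so was higher also in pair 6. HOPX, a cofactor expressed in alveolar type I cells, had pair differences of 1.89, 0.46, 1.40 and 1.70. The lower gene was ABCA3, the lipid transporter of surfactant-storing organelles, at 17.3, 14.4, 20.2 and 23.0 CPM against 24.1, 24.9, 25.7 and 29.1 CPM. Members of the list thus differed in direction, with NAPSA and SFTPB higher and ABCA3 lower in every pair.

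Of the epithelial regulators 14 were tested, with a median of 0.98. Of these, 5 were higher (35.7%, against 10.2% of all genes) and 0 lower in 4 of 4 pairs. ELF3, an epithelial ETS-family transcription factor, was at 62.5, 85.2, 3.66 and 22.0 CPM against 32.2, 25.7, 0.936 and 10.6 CPM. ELF3 had a log2 fold change of 1.38 ± 0.19 (edgeR adjusted p 0.109), and DESeq2 called it with any pair left out. ESRP1 and ESRP2, which direct epithelial splicing, had log2 fold changes of 1.17 ± 0.20 and 1.10 ± 0.21, and both were higher in every pair. ESRP1 was nearly absent from number 6, at 0.137 and 0.104 CPM.

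The difference of TP63, the master factor of basal epithelium, depended on pair 6. TP63 was at 60.7, 59.8, 0.655 and 11.7 CPM against 15.8, 9.77, 0.988 and 2.44 CPM. It was higher in 3 pairs and lower in pair 6, where both libraries were low. Without pair 6, the log2 fold change of TP63 was 2.26 (edgeR adjusted p 0.00999).

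Keratins, the intermediate filaments of epithelium, gave a median of 0.27 over 14 genes. In 4 of 4 pairs 4 were higher (28.6%, against 10.2% of all genes) and 1 lower (7.14%, against 9.81%). The abundant simple-epithelium keratins had small differences of mixed sign: KRT8 was at 1896, 2429, 664 and 948 CPM against 1855, 1622, 551 and 1079 CPM. KRT17, a keratin of basal and stressed epithelium, was at 204, 125, 14.99 and 63.6 CPM against 108, 49.4, 7.93 and 47.4 CPM, a log2 fold change of 0.90 ± 0.15 (edgeR adjusted p 0.160). The lower one was the hair keratin KRT81, with pair differences of -0.18, -0.72, -0.15 and -0.28.

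Mucins and CEACAMs, which form the surface coat of glandular cells, had the highest list median, 1.83 over 9 tested genes. Of these, 3 were higher (33.3%, against 10.2% of all genes) and 0 lower in 4 of 4 pairs. MUC4, a membrane mucin that binds ERBB2, was at 8.61, 30.4, 0.273 and 5.15 CPM against 4.07, 2.81, 0.0260 and 1.65 CPM. MUC16, the mucin known as CA125, was at 21.0, 79.3, 0.0273 and 11.8 CPM against 8.37, 3.66, 0 and 2.41 CPM, so that its difference was largest in pair 5. Without pair 5 its log2 fold change was 1.81 ± 0.31 instead of 2.67 ± 0.57.

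Membrane-bound epithelial proteases and their inhibitors had a median of 0.87 over 12 genes. In 4 of 4 pairs 6 were higher (50%, against 10.2% of all genes) and 0 lower. ST14, the membrane serine protease matriptase, was at 151, 280, 3.99 and 59.2 CPM against 88.1, 87.6, 1.01 and 34.3 CPM. SPINT1, its inhibitor HAI-1, was at 233, 246, 5.79 and 101 CPM against 138, 151, 2.42 and 89.7 CPM. Protease and inhibitor were thus both higher in every pair, and DESeq2 called both (adjusted p 6.272e-06 and 0.0123).

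Tight junction genes had a median of 0.49 over 17 tested. Of these, 6 were higher (35.3%, against 10.2% of all genes) and 0 lower in 4 of 4 pairs. CLDN1, the sealing claudin of skin and airway, was at 186, 135, 4.34 and 33.1 CPM against 60.6, 27.8, 1.07 and 18.1 CPM. Its log2 fold change was 1.67 ± 0.22 (edgeR adjusted p 0.109), and pair 6 differed by 1.97, as much as the other pairs. CGN, the junction plaque protein cingulin, had a log2 fold change of 0.95 ± 0.19. CLDN4 was abundant, at 83.5 to 370 CPM, and its pair differences lay between -0.16 and 0.28, and TJP1, the scaffold ZO-1, had a log2 fold change of 0.10 ± 0.14.

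Among 29 cell-cell junction genes, 10 were higher (34.5%, against 10.2% of all genes) and 0 lower in 4 of 4 pairs. The median was 0.29. DSP, the desmosome plaque protein desmoplakin, was at 510, 668, 207 and 314 CPM against 343, 205, 145 and 211 CPM, with a log2 fold change of 0.83 ± 0.21 (DESeq2 adjusted p 0.0086). Pair 5 differed by 1.70 and the others by 0.51 to 0.57. CDH1 was at 332, 561, 0.273 and 116 CPM against 163, 108, 0.416 and 54.3 CPM, so that it was higher in pairs 4, 5 and 9 and near 0 in both libraries of pair 6. Its log2 fold change was 1.32 ± 0.33 (edgeR adjusted p 0.342). DESeq2 gave an adjusted p of 0.450 with all pairs and 2.676e-08 without pair 6, while edgeR without pair 6 gave 0.167. EPCAM, an epithelial adhesion molecule, was at 384, 490, 27.4 and 138 CPM against 234, 234, 25.5 and 118 CPM and was higher in every pair, with a log2 fold change of 0.53 ± 0.17 (edgeR adjusted p 0.450).

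Mesenchymal genes had no common direction: of 18 tested, 1 was higher and 1 lower in 4 of 4 pairs, and the median was -0.09. Each is 5.56%, against 10.2% higher and 9.81% lower among all genes. VIM was at 3106, 1167, 6696 and 4288 CPM against 3899, 4395, 6632 and 4583 CPM. Its difference of -1.91 in pair 5 stood beside -0.33, 0.01 and -0.10 in the others. ZEB1, a repressor of CDH1, was likewise low in strongly adherent library 5, at 9.79 against 47.0 CPM. ZEB1 was also lower in pairs 4 and 6 (27.4 against 40.8 and 90.9 against 124 CPM), and higher in pair 9 (68.3 against 62.0 CPM). FN1, the matrix protein fibronectin, was the higher gene, at 4622, 3488, 7177 and 4261 CPM against 4222, 2877, 2422 and 3815 CPM, with most of the difference in pair 6 (1.57). TGFBI, a matrix protein induced by TGF-beta, was the lower gene, with pair differences of -0.07, -1.52, -0.65 and -0.57.

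**Figure D4:**
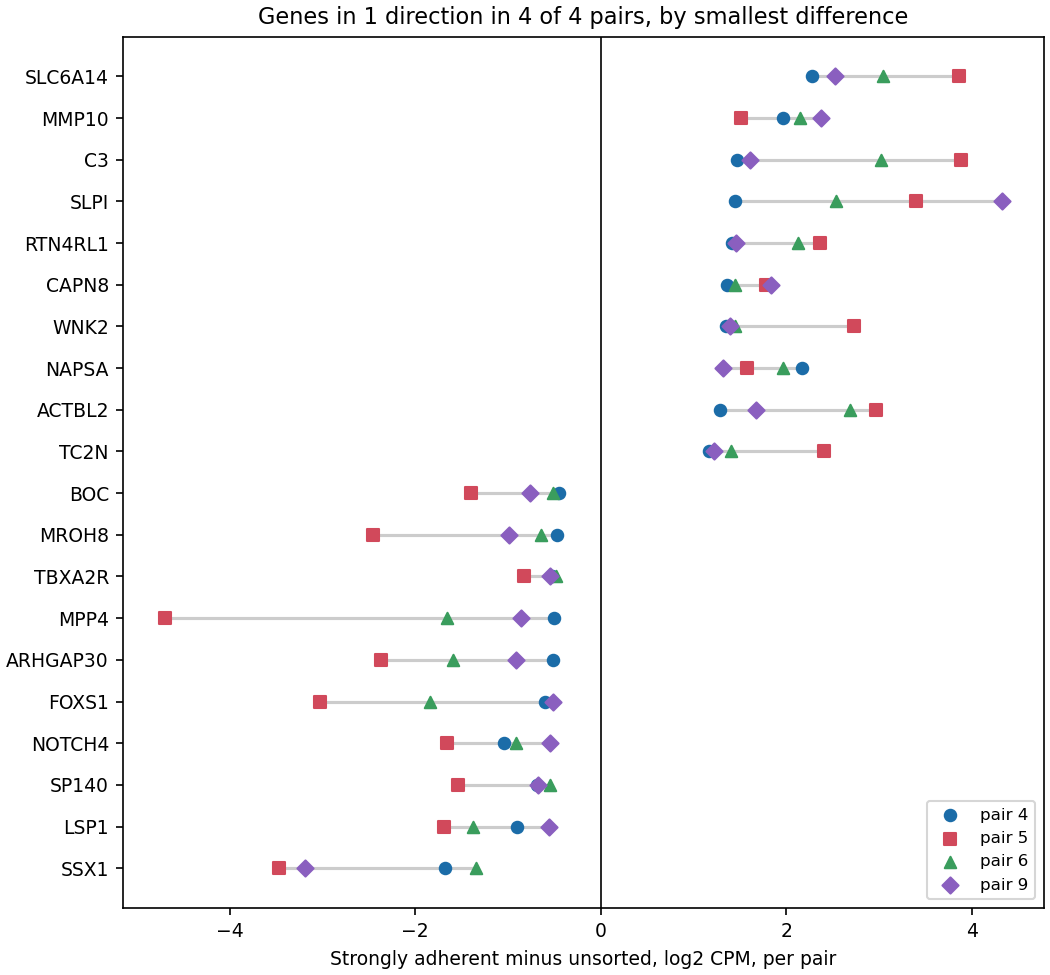
Difference in log2 CPM (horizontal axis, strongly adherent minus unsorted) in each of the 4 pairs for the 10 higher and 10 lower genes with the largest smallest difference, 1 point per pair. All points lie on 1 side of 0 because the genes were chosen so, and the pair 6 points of 8 of the 10 higher genes rest on 3 or fewer counts in the unsorted library.

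Of 23 tested matrix proteases and their inhibitors, 5 were higher (21.7%, against 10.2% of all genes) and 0 lower in 4 of 4 pairs. Their median log2 fold change was -0.07. The pair medians differed from that in sign, at 0.22, 0.14, 0.25 and 0.05 in pairs 4, 5, 6 and 9. MMP1, the interstitial collagenase, was at 456, 288, 36.1 and 125 CPM against 113, 71.2, 24.5 and 34.2 CPM. Pairs 4, 5 and 9 differed by 2.01, 2.02 and 1.87 and pair 6 by 0.56. Its log2 fold change was 1.63 ± 0.25 (edgeR adjusted p 0.139), and without pair 6 it was 1.96 (edgeR adjusted p 0.00408). MMP13, collagenase 3, was at 316, 253, 0.464 and 42.2 CPM against 70.9, 57.1, 0.650 and 24.4 CPM, so that it was higher in pairs 4, 5 and 9 and low in both libraries of number 6. PLAT, the tissue plasminogen activator, and ADAM9, a shedding protease, were the other abundant members higher in every pair, with log2 fold changes of 0.24 and 0.32. In pair 6 the ADAM9 levels were nearly the same, at 229.7 against 229.0 CPM. MMP14, the membrane-anchored protease, was the most abundant of the list's metalloproteinases and was higher only in pair 4 (pair differences 0.19, -0.91, -0.82 and -0.31). In pairs 5, 6 and 9 MMP1 and MMP10 were thus higher and MMP14 lower in the same strongly adherent libraries.

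Receptors and ligands of the ERBB family had 4 higher (36.4%, against 10.2% of all genes) and 1 lower (9.09%, against 9.81%) in 4 of 4 pairs among 11 tested. DESeq2 called 4 higher and 0 lower, against 1.49% and 0.141% of all genes. This list too was drawn up after values had been seen. ERBB3, the receptor that signals only with a partner, was at 74.3, 101, 5.13 and 32.5 CPM against 35.3, 37.7, 2.05 and 20.4 CPM, with a log2 fold change of 1.12 ± 0.15 (edgeR adjusted p 0.109). Its relatives EGFR and ERBB2 had log2 fold changes of 0.27 ± 0.16 and 0.14 ± 0.11. Among ligands, AREG was at 14.8, 14.4, 9.39 and 6.31 CPM against 6.46, 6.69, 3.41 and 3.89 CPM. EREG was at 81.0, 168, 25.8 and 21.7 CPM against 33.4, 36.5, 9.49 and 17.5 CPM. These 2 EGFR ligands were higher in every pair, pair 6 included, and TGFA was too (log2 fold change 0.70 ± 0.19). HBEGF was not, with pair differences of 0.14, -0.61, -0.03 and -0.24. Feedback genes of RAS-MAPK signalling were mixed, with 6 higher (28.6%, against 10.2% of all genes) and 3 lower (14.3%, against 9.81%) of 21 in 4 of 4 pairs. DUSP6, the ERK phosphatase, was at 857, 715, 588 and 487 CPM against 528, 642, 358 and 453 CPM, and DUSP4 and EPHA2 were lower in every pair by at most 0.24 and 0.36.

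Prostaglandin genes, on another list drawn up after values had been seen, had 4 higher (33.3%, against 10.2% of all genes) and 0 lower in 4 of 4 pairs among 12 tested. PTGS2, the inducible cyclooxygenase, was at 146, 65.3, 25.9 and 28.6 CPM against 61.3, 25.9, 13.2 and 22.2 CPM. PTGES, which makes prostaglandin E2, was at 87.3, 160, 127 and 44.5 CPM against 59.3, 56.5, 38.2 and 36.6 CPM. HPGD, which breaks prostaglandin E2 down, was at 414, 446, 2.05 and 109 CPM against 150, 183, 1.09 and 55.4 CPM. SLCO2A1, which carries prostaglandins into the cell, had a log2 fold change of 1.08 ± 0.24. Its pair 6 difference of 0.59 rested on 3 or fewer counts in each library. Genes of synthesis and of breakdown were therefore higher in the same libraries. HPGD had 1 of the smallest p-values in edgeR (log2 fold change 1.19 ± 0.13, adjusted p 0.0838). Its pair differences were 1.47, 1.28, 0.87 and 0.97.

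Several genes outside these lists were also higher in all 4 pairs, and are named for their small p-values after these were seen. GDF15, a stress-induced hormone of the TGF-beta family, was at 37.1, 63.8, 1.80 and 9.26 CPM against 16.3, 15.5, 0.806 and 4.05 CPM. AQP3, a water and glycerol channel, had a log2 fold change of 1.57 ± 0.24, and AGR2, a disulfide isomerase of mucus-secreting cells, 0.85 ± 0.13. CX3CL1, a membrane-bound chemokine, was at 235, 187, 6.36 and 69.6 CPM against 95.6, 115, 2.94 and 46.6 CPM. STOM, the membrane scaffold stomatin, was at 95.3, 160, 30.2 and 22.2 CPM against 33.7, 28.6, 8.27 and 13.1 CPM, and so kept a difference of 1.86 in pair 6. DESeq2 called these 5 with any pair left out.

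Amino acid transporters and secretory RAB proteins gave further genes that were higher in every pair without being scarce in number 6. SLC7A2, a transporter of arginine and lysine, was at 21.1, 22.5, 30.7 and 12.4 CPM against 11.6, 8.08, 8.68 and 7.25 CPM. All 4 strongly adherent libraries were above all 4 unsorted ones, and its log2 fold change was 1.24 ± 0.20 (edgeR adjusted p 0.160, DESeq2 1.248e-05). Earlier results of these data had named SLC7A2, and RAB3D below, so this separation is a description. SLC7A11, the cystine importer, had a log2 fold change of 1.26 ± 0.35, with its largest difference, 2.73, in pair 6. RAB27B, a GTPase that docks secretory vesicles, was at 74.9, 39.5, 54.1 and 31.2 CPM against 36.3, 28.0, 25.0 and 18.0 CPM. Of 20 secretory RAB genes 7 were higher (35%, against 10.2% of all genes) and 2 lower (10%, against 9.81%) in 4 of 4 pairs. Among the higher were RAB3D (27.5, 34.3, 39.5 and 24.7 CPM against 23.7, 20.8, 21.1 and 18.7 CPM) and RAB27A (log2 fold change 0.33).

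Other genes given because earlier results of these data had named them were TBC1D8, AHR, GOLGA3 and PRTG, all higher in 4 of 4 pairs. TBC1D8, a regulator of RAB GTPases, was at 17.5, 24.7, 40.8 and 18.8 CPM against 13.1, 13.1, 11.2 and 14.1 CPM. AHR, the receptor for aryl hydrocarbons, was at 313, 353, 238 and 174 CPM against 198, 158, 180 and 148 CPM. DESeq2 called both (adjusted p 0.0342 and 0.0305), and edgeR neither (0.375 and 0.345). GOLGA3 and PRTG had log2 fold changes of 0.36 ± 0.12 and 0.74 ± 0.19. VEGFA, the angiogenic growth factor, was at 381, 272, 287 and 320 CPM against 233, 194, 130 and 293 CPM, higher in every pair and called by DESeq2 (adjusted p 0.036).

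DESeq2 called fewer genes lower than higher, 20 against 212. The 10 with the largest smallest difference among those lower in 4 of 4 pairs were SSX1, LSP1, SP140, NOTCH4, FOXS1, ARHGAP30, MPP4, TBXA2R, MROH8 and BOC, all at 27.8 CPM or less. DESeq2 called 5 of them, SSX1, LSP1, NOTCH4, FOXS1 and ARHGAP30, and edgeR none. They too were chosen by their differences in the same libraries. LSP1, an actin-binding protein known from leukocytes, was at 5.24, 3.31, 10.5 and 7.16 CPM against 9.89, 10.8, 27.4 and 10.5 CPM. The log2 fold change of LSP1 was -1.14 ± 0.21 (edgeR adjusted p 0.166). NOTCH4, a Notch receptor of endothelium, was at 2.31, 1.78, 14.7 and 5.68 CPM against 4.81, 5.75, 27.8 and 8.35 CPM. SSX1, a cancer-testis antigen, was at 0.553, 0.0644, 1.77 and 0.0628 CPM against 1.88, 1.25, 4.58 and 1.01 CPM. Unlike the epithelial genes, LSP1 and NOTCH4 were most abundant in number 6.

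PDLIM3, a PDZ and LIM protein of actin fibres, was lower in all 4 pairs, at 4.74, 4.64, 3.96 and 6.66 CPM against 8.47, 8.52, 11.6 and 8.04 CPM. The groups did not overlap, and its log2 fold change was -0.88 ± 0.23 (edgeR adjusted p 0.345, DESeq2 0.0374). PDLIM3 had been named by earlier results of these data, so this too is a description. TAGLN, the actin-binding protein transgelin, was at 59.4, 16.8, 7.32 and 52.9 CPM against 59.6, 41.9, 13.3 and 114 CPM, so that its pair 4 libraries were alike. UBTD1, PSIP1, DBP, TUBB and TUBA1B, which earlier results had named, were also lower in 4 of 4 pairs, with log2 fold changes of -0.62, -0.37, -0.53, -0.36 and -0.41. DESeq2 called none of these 5.

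Adhesion and cytoskeleton genes had small list medians, with more members lower than higher in 4 of 4 pairs. ITGB1, the beta subunit shared by most matrix-binding integrins, was at 1169, 1044, 1219 and 1171 CPM against 1248, 1112, 1794 and 1221 CPM. It was lower in every pair, by 0.06 to 0.09 in pairs 4, 5 and 9 and by 0.56 in pair 6. Of 19 integrin genes 1 was higher (5.26%, against 10.2% of all genes) and 3 were lower (15.8%, against 9.81%) in 4 of 4 pairs. The higher one was ITGB6, an epithelial integrin subunit, at 52.1, 54.6, 1.83 and 18.2 CPM against 21.2, 23.4, 1.79 and 13.7 CPM. Focal adhesion genes gave 2 higher and 9 lower of 33 (27.3% lower), actomyosin genes 0 higher and 10 lower of 33 (30.3%), and tubulins 0 higher and 9 lower of 28 (32.1%), against 9.81% of all genes. Their median log2 fold changes were -0.07, -0.10 and -0.15, and the pair medians were lowest in pair 6, at -0.21, -0.29 and -0.38. PTK2, focal adhesion kinase, had pair differences of -0.22, -0.06, -0.47 and 0.09, and CD44, the hyaluronan receptor, -0.14, 0.38, 0.11 and 0.02. None of these genes passed edgeR. DESeq2 called TNS1 and TAGLN lower among the focal adhesion and actomyosin genes, and no integrin or tubulin. On the list of LIM and PDZ proteins it called LMO7 (0.59 ± 0.11) higher and PDLIM3 lower.

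Housekeeping groups were lower by small amounts in many members at once. Of 76 nuclear genes of the respiratory chain, 72 had a negative log2 fold change (48.5% of all genes had one), 31 were lower in 4 of 4 pairs (40.8%, against 9.81% of all genes) and 1 was higher. The median was -0.19, with pair medians of -0.24, -0.40, -0.02 and -0.08. ATP5A1, a subunit of ATP synthase, was at 352, 254, 397 and 376 CPM against 392, 414, 512 and 398 CPM. All 31 proteasome genes had a negative log2 fold change and 18 were lower in 4 of 4 pairs (58.1%), with a median of -0.16 and pair medians of -0.13, -0.18, -0.25 and -0.11. PSMA7, a subunit of the core ring, was at 377, 323, 379 and 358 CPM against 425, 443, 416 and 413 CPM. Of 40 mitochondrial ribosome genes 16 were lower (40%) and 0 higher in 4 of 4 pairs. No member of these 3 lists was called by edgeR or DESeq2.

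Cholesterol synthesis genes had 11 lower (44%, against 9.81% of all genes) and 0 higher in 4 of 4 pairs among 25, and 24 had a negative log2 fold change. FDPS, which makes farnesyl diphosphate, was at 84.5, 70.8, 79.0 and 84.6 CPM against 101, 107, 98.4 and 104 CPM, without overlap of the groups. DNA replication genes had 12 lower (37.5%) and 0 higher of 32, with a median of -0.31. The pair medians were -0.21, 0.05, -0.97 and -0.15, and 29, 13, 32 and 24 of the 32 were lower in pairs 4, 5, 6 and 9, so that the median was lowest in pair 6 and slightly above 0 in pair 5. PCNA, the polymerase clamp, was at 110, 102, 70.0 and 111 CPM against 144, 121, 137 and 120 CPM. MKI67, a marker of cycling cells, had pair differences of -0.17, 1.34, -0.78 and 0.33, so that it had no common direction. Cytosolic ribosomal protein genes were lower in pair 5 (74 of 74, median -0.53) and mostly in pair 4 (66 of 74, median -0.18), and mostly higher in pair 6 (65 of 74, median 0.25). In pair 9 44 of 74 were lower. Interferon response genes were higher in pairs 4 and 5 (42 of 44 in each) and lower in pair 9 (40 of 44), and 1 was higher in 4 of 4. The direction of these last 2 lists thus differed between pairs.

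**Figure D5:**
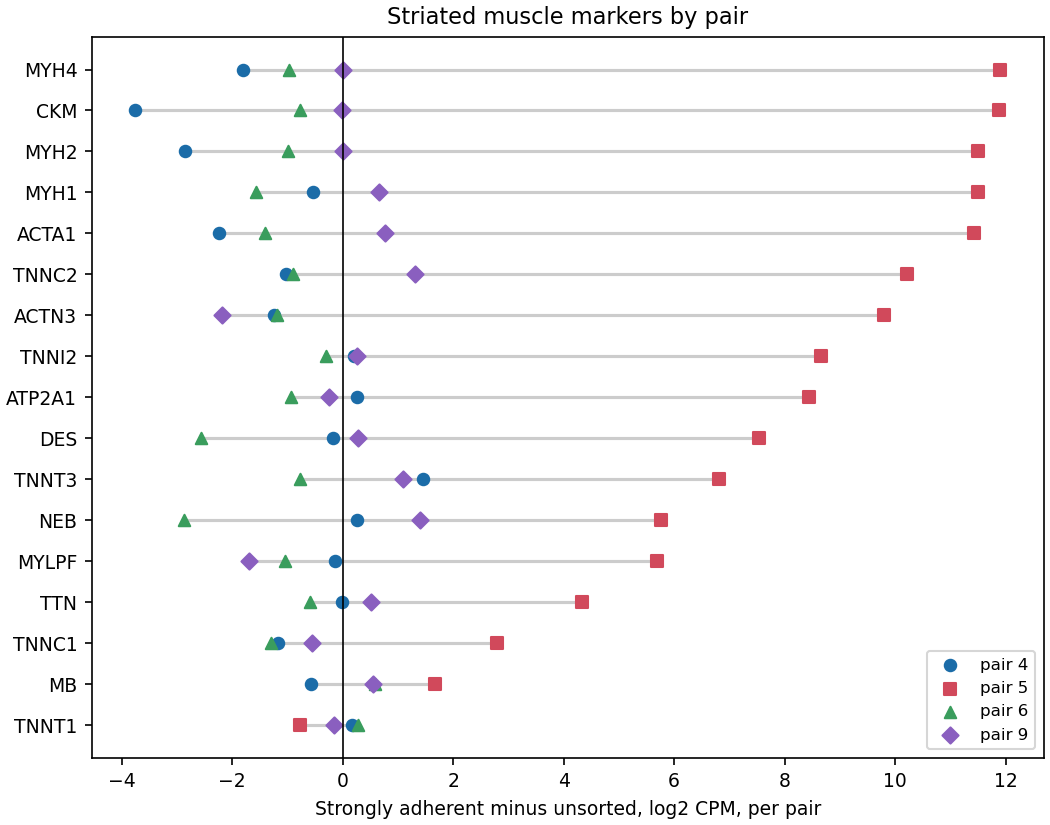
Difference in log2 CPM (horizontal axis, strongly adherent minus unsorted) of the 17 tested striated muscle markers, 1 point per pair. In pair 5 16 of 17 lie above 0, in pair 6 15 of 17 lie below 0, and the points of pairs 4 and 9 lie on both sides.

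Striated muscle genes separated strongly adherent library 5 and number 6 from the rest. Their summed level was 3075 CPM in strongly adherent library 5 against 109 CPM in its unsorted partner, and 526 CPM in strongly adherent against 1234 CPM in unsorted library 6. In pairs 4 and 9 the sums were 98.9 against 91.6 CPM and 90.9 against 96.0 CPM. TNNT1 made up most of these sums, at 85.1 against 76.0 and 74.4 against 83.2 CPM, and of the sum in unsorted library 5. It was at 48.1 to 102 CPM in every library. The median difference of the 17 tested genes was -0.54 in pair 4 and 0.26 in pair 9. ACTA1, the skeletal muscle actin, was at 0.649, 882, 135 and 0.628 CPM against 3.26, 0.265, 358 and 0.348 CPM. CKM, the muscle creatine kinase, was at 0, 477, 63.2 and 0.0314 CPM against 0.673, 0.0722, 108 and 0.0316 CPM. Of 17 tested muscle genes none had 1 direction in 4 of 4 pairs, since they were higher in pair 5 (16 of 17) and lower in pair 6 (15 of 17). PVALB, the muscle calcium buffer, and MYH7 and MYL1 did not pass the filter on low counts. No muscle gene was called by edgeR or DESeq2.

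Summed markers of other tissues also differed within pairs. Summed fibroblast markers were 1401 against 700 CPM in pair 5 and 231 against 426 CPM in pair 6. The pair 5 sum was mostly collagen, with COL1A1 at 1081 against 490 CPM, while 4 of the 10 tested markers were lower there, among them PDGFRB (3.86 against 9.00 CPM) and FAP (13.1 against 16.5 CPM). Pericyte and smooth muscle markers, which include the muscle filament gene DES, were 371 against 138 CPM in pair 5 and 55.1 against 279 CPM in pair 6. DES alone was at 242 against 1.25 CPM in pair 5 and 36.6 against 216 CPM in pair 6. Without DES the sum was 129 against 137 CPM in pair 5 and 18.5 against 63.2 CPM in pair 6. Endothelial markers were 73.0 against 156 CPM and myeloid markers 76.0 against 118 CPM in pair 5. The most abundant endothelial marker, ESAM, was at 27.9 against 113 CPM there, while EGFL7 was higher (35.5 against 25.2 CPM). Of 8 tested endothelial markers 2 were higher and 6 lower in pair 5. The myeloid sum was mostly CD68, at 54.3 against 103 CPM, while 4 of the 6 tested myeloid markers were higher in pair 5. In log2, the sums in pairs 4 and 9 differed by -0.29 and 0.10 for fibroblast, -0.10 and -0.10 for endothelial, -0.22 and -0.10 for myeloid, and 0.19 and -0.45 for pericyte and smooth muscle markers. Adipocyte and red blood cell sums were at most 9.35 CPM and differed by -0.70 and -1.32 in pair 4 and by 0.18 and 1.35 in pair 9. The part of other cells in the pair differences was not tested.

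With pair 5 left out, edgeR called 2 genes, MMP10 and SLC6A14, both higher, and with pair 6 left out 7 genes, all higher: MMP1, MUC5B, SFTPB, TP63, MMP10, B3GNT6 and HPGD. Leaving out pair 4 or pair 9 gave 0. With both pair 5 and pair 6 left out, 65 genes were called by edgeR on 2 pairs, 64 higher and 1 lower. The lower gene was KISS1, a metastasis suppressor (log2 fold change -2.17). Of the 65, 46 were among DESeq2's 232, and 42 were higher in 4 of 4 pairs. In this fit SLC6A14 had a log2 fold change of 2.39 (adjusted p 0.000361), CDH1 1.06 (0.00585), TP63 2.06 (0.00115), NKX2-1 1.27 (0.00753) and SLC34A2, the phosphate transporter of alveolar type II cells, 2.28 (0.0021). Higher levels of these epithelial and lung-lineage genes were thus measured also in pairs 4 and 9. These genes were picked from the 65, and a fit on 2 pairs estimates the spread from few libraries. The part of other cells in these differences was not tested. Without pair 5 the log2 fold change of SLC6A14 was 2.51 instead of 2.95. Without pair 6 that of CDH1 was 1.48 instead of 1.32 and that of TP63 2.26 instead of 1.81.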

How the data were processed

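Bulk mRNA was sequenced as 50 bp single-end reads with a stranded kit, per the labels' protocols. The tools named in the submitters' processing notes are cutadapt, FastQC, STAR, HTSeq and DESeq2, with build hg19. Neither their versions nor the use of strand in counting is stated in the sources used here. The authors deposited raw counts for 25382 gene symbols, of which 4710 had no count, and a table of log2 normalized values, which was not used here.

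For the 8 libraries, edgeR 4.0.16 in R 4.3.3 was run on the counts (filterByExpr, TMM, robust quasi-likelihood fit, title number as a block, two-sided, Benjamini-Hochberg over 14806 genes, threshold 0.05). The standard error (SE) was derived from the fitted log2 fold change and the F statistic. Pair differences used a prior count of 2. The biological coefficient of variation was 21.9%. DESeq2 1.42.0 and limma 3.58.1 voom were alternatives, as were other scalings, filters, fits on all 15 libraries and leaving pairs out. The fits were tested on counts simulated with edgeR's own dispersion estimates, which may favour edgeR. With the block, 12 of 203 edgeR calls, 14 of 203 voom calls and 43 of 239 DESeq2 calls were false. The share was above the threshold for each of these and highest for DESeq2, so that part of the DESeq2 calls may be false.

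The numbers were taken to pair the libraries, since deviations from the group means correlated between libraries of a number over 14806 genes (r = 0.635, 0.414, 0.754 and 0.361 for numbers 4, 5, 6 and 9, genes not being independent). Between unlike numbers r lay between -0.715 and 0.560. It was 0.560 for strongly adherent 4 with unsorted 5 and 0.528 for strongly adherent 5 with unsorted 4, above the 0.414 of number 5, so these correlations do not single out its partner. All libraries differed from each other beyond counting noise.

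Members, lists and tests were chosen with earlier results of these data known, and the 9 added lists (lung lineage, epithelial regulators, keratins, mucins and CEACAMs, epithelial proteases, tight junction genes, ERBB family, prostaglandin metabolism and complement) after values were seen, so no list was tested. Named genes are the 10 higher and 10 lower genes with the largest smallest pair difference among those with 1 direction in 4 of 4 pairs and a mean of at least 1 CPM, up to 3 members of each list by mean CPM, and genes that earlier results of these data had named. A count of 3 was taken as the limit below which a level is not read. Values of some list members are not reported here. No sequences or coordinates were used.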

Additional observations from a re-analysis of the deposited data

Results flagged for a closer look

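Of 230 results examined for 1 pair far from the other 3, 24 were flagged by Dixon's test, and chance flags about 1 in 20. Most were in pair 5, in units of log2 CPM. Higher there than in the other pairs were DSP (1.70), GDF15 (2.04), LAMA3 (1.52), WNK2 (2.73) and SEL1L (0.50). Lower there were ESAM (-2.01), PDGFRB (-1.21), ILK (-0.90), ITGB5 (-0.93), SP140 (-1.54), TBXA2R (-0.83), TPI1 (-0.62) and RPS14 (-0.60). Among list medians, striated muscle stood apart in pair 5 at 8.43, against -0.54, -0.98 and 0.26 in pairs 4, 6 and 9, and secretory RAB proteins at 0.45.

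In pair 6, FN1 (1.57) and PER2 (1.08) were higher and ITGB1 (-0.56) and MRPS16 (-0.39) lower than in the other pairs. MMP1 differed by 0.56 in pair 6 against at least 1.87 elsewhere. The median of pericyte and smooth muscle markers in pair 6 was -0.86. In pair 4, PRTG (1.04) and the integrin median (0.23) stood apart, and in pair 9 the median of unfolded protein response genes (-0.14).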

How the results depend on the processing

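The count of called genes depended on the tool and on pairs 5 and 6. Against 0 in edgeR's fit with the replicate block, 13 genes were called with no filter, 232 by DESeq2 with the replicate block, 1 by limma voom with the replicate block and 65 with pairs 5 and 6 both left out. Of alternatives chosen after seeing the data, voom with sample weights called 164 and DESeq2 on all 15 libraries 23. DESeq2 with a pair left out called 112, 90, 367 and 232 genes (pairs 4, 5, 6 and 9). edgeR with a pair left out called 0 to 7. DESeq2 size factors in edgeR, a filter at 1 CPM, no replicate block and the edgeR fits on all 15 libraries, with or without strongly adherent library 5, called 0. Counts of genes with 1 direction in every pair stayed within 1.5 times under other scalings, filters and prior counts. With a pair left out, 2040 to 3099 were higher and 2022 to 2856 lower in the 3 that remained. Of 3634 recomputed log2 fold changes of 182 named genes, 35 changed sign, in 12 genes, and of 1040 list medians 131, in 29 of 52 lists. Genes with few counts in number 6 limit what pair 6 can show. The exact sign-flip p cannot go below 0.125.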
